A study of Arabidopsis thaliana with 20 samples.

Results

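Of the 22746 Arabidopsis probe sets on the array that are not controls, 130 (0.572%) were higher with 200 ng/ml kinetin in both replicates of every genotype studied, and these are described here. They were selected on the same arrays. A probe set is included where the log2 ratio of its signal plus 30 at 200 ng/ml kinetin to that at 0 ng/ml was at least 1 within each replicate number of ckh1, ckh2 and wild type, which makes 6 values per probe set. The rise at 200 ng/ml is therefore what chose the members, and it is given below only as a description. Of the 130 members, 66 map to 1 gene and name 65 genes, 4 map to several genes and 60 have no gene in the array's name table. Members with no single gene are given by their probe set number.

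Cytokinins are plant hormones that promote cell division, greening and shoot formation, and together with auxin they determine whether cultured tissue forms callus, shoots or roots. They are perceived by histidine kinases, whose phosphoryl groups reach response regulators by way of phosphotransfer proteins. Type-B response regulators activate transcription of the primary targets, among them the type-A response regulators, which feed back on the pathway. Genes further downstream in dividing and differentiating tissue include those for cell wall enzymes and secreted proteins.

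Arrays were made from hypocotyl segments held for 3 days on medium with the auxin 2,4-D at 100 ng/ml, taken from seedlings that had grown for 10 days in dim light. The mutants ckh1-1 and ckh2-1 and the wild type Ler were each given kinetin, a synthetic cytokinin, at 0, 25 or 200 ng/ml. A further wild type group had no kinetin and 100 ng/ml trichostatin A (TSA), which inhibits histone deacetylases. CKH1 is known to encode a TBP-associated factor of the general transcription factor TFIID and CKH2 the chromatin remodelling factor PICKLE. All groups, controls included, had 2,4-D and came from cut hypocotyls, and each mutant is represented by 1 allele. The series title poses the question of how both genes act on cytokinin responses in cultured tissue.

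Each of the 10 groups had 2 arrays, and the values are MAS5 signals on a linear scale as deposited by the authors. The median signal of an array lay between 92.6 and 137. The trimmed mean was 310.9 in replicate 1 and 236.9 in replicate 2 of every group, which differ by a factor of 1.31. Counts from signals rescaled to a common trimmed mean are printed beside the others for that reason. Where 1 array is left out below, the groups compared hold unequal shares of replicates 1 and 2. The factor of 1.31 then enters the difference, unless the replicate number is a block in the fit. Nothing in the labels says that replicates are separate cultures, and p-values therefore cover the spread between these 2 arrays a group and no more, which may be technical. The number of arrays limits the precision. In whole segments, fewer cells of a type and less RNA per cell cannot be told apart. The probe sets of CKH1 and CKH2 themselves are unnamed in the table used here, so the mutations were not checked at the transcript level. Of 22 marker genes for phloem, epidermis, shoot meristem and root, 2 could be named on the array. Their signals were low in all 20 arrays, between 13.4 and 45.2 for FAMA (guard cells) and between 2.48 and 22.7 for CLV3 (shoot meristem), so the cell types present were not checked further.

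The values that chose the members had a median over both replicates of 1.89 in ckh1, 1.87 in ckh2 and 1.63 in wild type on the log2 scale. The highest mean rise was 3.70 in ckh1, 3.41 in ckh2 and 2.97 in wild type. The threshold cuts through a continuous range. The members nearest to it had a lowest value of 1.007 (250443_at), 1.004 (AT5G24320, a WD40 repeat protein) and 1.003 (267012_at). The nearest probe sets that were left out had 0.997 (AT2G47950), 0.995 (258183_at) and 0.991 (261910_at). The membership depends on the constant added to the signals. With 10 in place of 30 the rule takes 168 probe sets, all 130 members among them, and with 100 it takes 69. On rescaled signals it takes 133, of which 129 are members.

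In the fit across all 15469 probe sets that passed a filter on low signals, 129 members were called higher at 200 ng/ml than at 0 ng/ml in ckh1, 129 in ckh2 and 116 in wild type. Over all probe sets tested, 5.28% were called higher and 5.71% lower in ckh1. In ckh2 they were 4.05% and 4.23%, and in wild type 1.65% and 1.42%. These counts follow from how the members were chosen and nothing is read from them. All 130 members passed the filter, which each did through groups where it is high.

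The named members are mostly not genes of the cytokinin pathway itself. Only 5 of 64 listed cytokinin genes could be named on the array, so this does not describe the whole set. The 60 members with no gene in the name table were given no role. In all, 45 members were placed in groups by the known role of their product, after their values had been seen. Among them were 12 of the cell wall, 8 other secreted or membrane-anchored proteins, 5 proteases, 10 probe sets for 9 enzymes of small molecules, 9 of signalling and regulation, and 1 of cytokinin signalling. The cell wall group held the expansin EXPB3, which loosens walls, the xyloglucan endotransglucosylase XTH32, the class III peroxidase AT5G51890 and the pectate lyase AT3G27400. It also held the polygalacturonases AT1G70500 and AT1G23460, the pectin methylesterase inhibitor family member AT2G01610 and the dirigent protein AT3G13650. The secreted or anchored group held 3 cupredoxins (AT1G72230, AT3G27200 and AT5G26330), the lipid transfer protein family member AT4G33550 and the cupin AT3G10080. Among the regulators were the MAP kinase ATMPK13, the receptor-like kinase AT1G79620 and OPS, a polarity protein of the phloem.

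Among the named members, ARR15, a type-A response regulator, was the one with a direct part in cytokinin signalling. The 60 members with no gene in the array's name table could not be compared with the lists. Of 64 entries in 6 lists of cytokinin genes (receptors, phosphotransfer proteins, both types of response regulator, response factors, hormone metabolism and other responsive genes), 5 could be named on the array and 3 were tested. The others named were ARR16, ARR18 and the cytokinin glucosyltransferases UGT76C1 and UGT76C2. ARR16, also a type-A regulator, was dim but highest at 200 ng/ml kinetin in each genotype. It had 26.0 and 24.7 at 200 against 20.1 and 1.79 at 0 ng/ml in ckh1, 40.2 and 41.2 against 12.3 and 13.1 in ckh2, and 65.4 and 51.2 against 0.794 and 9.24 in wild type. ARR18, a type-B regulator, lay between 1.94 and 25.4 over 20 arrays. Both fell below the filter and were not tested. UGT76C2 was lower at 200 than at 0 ng/ml in ckh1, by a log2 difference of -1.18 (limma, adjusted p = 0.0178), with -0.91 in ckh2 and -0.58 in wild type, which did not pass. UGT76C1 passed in no genotype.

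Lists of genes outside the cytokinin pathway could be named only in part. Named on the array were 4 of 25 secondary wall entries and 4 of 26 for photosynthesis. For the cell cycle they were 2 of 14, and for auxin response 7 of 12. The rest could not be looked for among the members. None of those named is a member, and they show what else moved at 200 ng/ml. At that dose 5.28% of all probe sets were called higher and 5.71% lower in ckh1, 4.05% and 4.23% in ckh2, and 1.65% and 1.42% in wild type. Of 4 tested secondary wall genes, 3 rose in ckh1, 3 in ckh2 and 1 in wild type. Their median log2 differences were 1.51, 1.59 and 0.84 in the same order of genotypes. IRX15-L, needed for xylan deposition, rose by 1.77 in ckh1, 1.69 in ckh2 and 0.98 in wild type. Of 4 tested photosynthesis genes, 2 rose in ckh1, 1 in ckh2 and 0 in wild type, where their median was 0.49. Of 7 tested auxin response genes, 4 fell in ckh1, 5 in ckh2 and 1 in wild type. PUCHI, a transcription factor of lateral root formation, fell by 2.36 in ckh1, 2.15 in ckh2 and 0.92 in wild type. The mitotic kinases AUR1 and AUR2 passed in no genotype. Each genotype's own no-kinetin arrays also chose the members.

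AT4G33550 had the highest mean rise of the named members. Its signals in ckh1 were 153 and 102 at 0, 828 and 786 at 25, and 2040 and 1859 at 200 ng/ml. In ckh2 they were 55.7 and 22.6, 169 and 265, and 823 and 560 at the same doses. In wild type they were 205 and 123, 210 and 163, and 842 and 367. The wild type arrays at 25 ng/ml thus lay within or just above the range at 0, while both ckh1 arrays at 25 ng/ml stood above every wild type array except the higher one at 200.

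The next named members by mean rise were AT5G11420, a DUF642 wall protein (mean over the 6 values 2.78), AT2G01610 (2.77), AT4G30650 of a low temperature and salt responsive family (2.76) and AT3G45160 (2.72). They were followed by the copper amine oxidase AT1G31710 (2.69 and 2.25 with its 2 probe sets), the ELMO family protein AT1G03620 (2.60), AT1G62480 (2.58) and AT3G61920 (2.55). The aspartyl protease family member AT5G07030 (2.49), the vacuolar processing enzyme ALPHA-VPE (2.42) and a further aspartyl protease family member, AT5G19110 (2.40), complete the 12. AT5G19110 lies beside the member AT5G19100, also an aspartyl protease family member, in the TAIR10.1 annotation. The member AILP1, an aluminium-induced protein family member, lies 3 genes further on.

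The other 11 had the following signals. AT5G11420 had 9.18 and 1.51 at 0, 48.7 and 39.0 at 25 and 384 and 196 at 200 ng/ml in ckh1. Over the same doses it had 40.2 and 17.7, 107 and 92.3, then 715 and 462 in ckh2 and 77.1 and 70.1, 101 and 85.8, then 347 and 328 in wild type. It was near the floor in ckh1 without kinetin and lower in ckh1 than in wild type at 25 ng/ml in both replicates, and at 200 ng/ml ckh2 was highest. AT2G01610 had 230 and 268 at 0, 840 and 753 at 25 and 2190 and 1358 at 200 ng/ml in ckh1. This gene had 208 and 109, 610 and 457, then 1993 and 1282 in ckh2 and 275 and 186, 580 and 361, then 1633 and 1244 in wild type. In all 3 genotypes each dose lay above the one before it, and ckh1 was highest at 25 ng/ml. AT4G30650 had 50.8 and 61.8 at 0, 229 and 253 at 25 and 1138 and 1048 at 200 ng/ml in ckh1. At these doses it had 120 and 55.7, 148 and 139, then 858 and 546 in ckh2 and 90.9 and 63.4, 184 and 151, then 478 and 283 in wild type. Here ckh2 was the lowest genotype at 25 ng/ml, and ckh1 was highest at 200 ng/ml. AT3G45160 had 233 and 193 at 0, 1500 and 1227 at 25 and 2039 and 2528 at 200 ng/ml in ckh1. It had 156 and 64.8, 322 and 417, then 1129 and 924 in ckh2 and 460 and 463, 997 and 600, then 2266 and 1490 in wild type. Without kinetin both mutants were below wild type, and at 25 ng/ml ckh1 was above it. AT1G31710 with its first probe set had 171 and 134 at 0, 690 and 667 at 25 and 2077 and 1576 at 200 ng/ml in ckh1. This probe set had 139 and 98.0, 263 and 221, then 1436 and 845 in ckh2 and 705 and 658, 861 and 777, then 2755 and 2164 in wild type. Both mutants began far below wild type, and ckh2 stayed below it at every dose.

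AT1G03620 had 95.8 and 56.4 at 0, 462 and 324 at 25 and 789 and 622 at 200 ng/ml in ckh1. Over the same doses it had 137 and 118, 407 and 283, then 1046 and 860 in ckh2 and 98.6 and 79.6, 211 and 121, then 640 and 528 in wild type. At 25 ng/ml both mutants were above wild type, and at 200 ng/ml ckh2 was highest. AT1G62480 had 2.18 and 2.07 at 0, 107 and 67.7 at 25 and 223 and 151 at 200 ng/ml in ckh1. The signals were 13.9 and 1.61, 50.6 and 50.4, then 258 and 142 in ckh2 and 29.9 and 13.5, 64.5 and 60.7, then 259 and 234 in wild type. It was near the floor in the mutants without kinetin, and at 200 ng/ml ckh2 overlapped with both other genotypes, while ckh1 was below wild type. AT3G61920 had 32.7 and 28.7 at 0, 179 and 132 at 25 and 319 and 246 at 200 ng/ml in ckh1. This gene had 14.8 and 16.0, 80.1 and 51.6, then 344 and 222 in ckh2 and 29.0 and 7.27, 65.6 and 36.0, then 307 and 190 in wild type. The genotypes overlapped at 200 ng/ml, and at 25 ng/ml ckh1 stood apart. AT5G07030 had 420 and 411 at 0, 1392 and 1199 at 25 and 2760 and 2395 at 200 ng/ml in ckh1. At these doses it had 523 and 287, 754 and 742, then 3493 and 2316 in ckh2 and 942 and 654, 1634 and 900, then 3736 and 3366 in wild type. Wild type was the highest genotype without kinetin. ALPHA-VPE had 38.4 and 3.32 at 0, 125 and 85.5 at 25 and 369 and 208 at 200 ng/ml in ckh1. The protease had 52.0 and 39.0, 196 and 92.5, then 261 and 148 in ckh2 and 124 and 120, 371 and 897, then 1749 and 766 in wild type. Wild type was above both mutants at every dose. AT5G19110 had 97.7 and 38.9 at 0, 198 and 179 at 25 and 956 and 796 at 200 ng/ml in ckh1. It had 83.9 and 82.6, 266 and 150, then 509 and 286 in ckh2 and 49.5 and 33.3, 66.4 and 73.1, then 257 and 277 in wild type. Both mutants were above wild type at 25 ng/ml, and ckh1 was highest at 200 ng/ml.

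**Figure D1:**
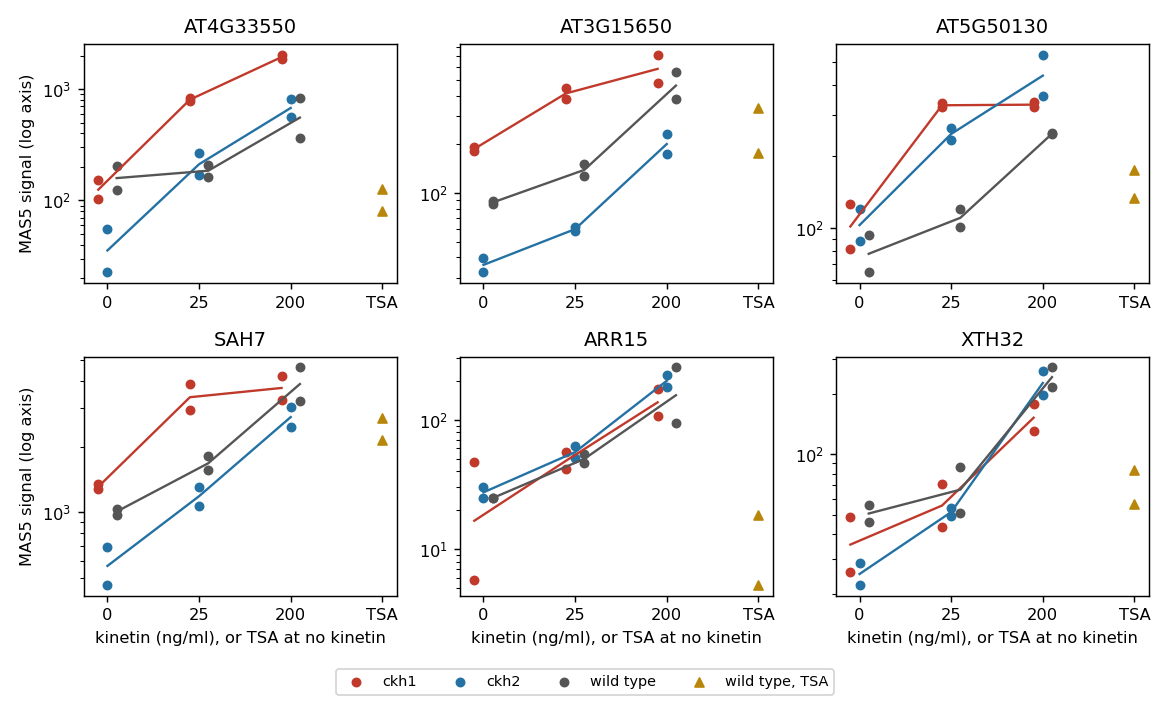
MAS5 signal on a log axis of 6 members against kinetin (0, 25 and 200 ng/ml) in ckh1 (red), ckh2 (blue) and wild type (grey), and in wild type with TSA and no kinetin (triangles). Points are single arrays, 2 per group, and lines join geometric means. In AT4G33550, AT3G15650, AT5G50130 and SAH7 the ckh1 arrays at 25 ng/ml stand above the wild type arrays at 25 ng/ml. Of these, SAH7 was not called in that comparison. In ARR15 and XTH32 the arrays of ckh1 and wild type at 25 ng/ml overlap.

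To describe how far each member had moved at that dose, its level at 25 ng/ml was placed between its own level at 0 ng/ml (position 0) and at 200 ng/ml (position 1), on the log2 scale with 30 added. The median position was 0.70 in ckh1 (quartiles 0.62 and 0.78), 0.47 in ckh2 (0.35 and 0.56) and 0.33 in wild type (0.22 and 0.42). Within replicate 1 the medians were 0.71, 0.44 and 0.31, and within replicate 2 they were 0.71, 0.49 and 0.32, again for ckh1, ckh2 and wild type. The order of the genotypes was the same in both replicates. The position lay above 0.5 for 113 members in ckh1, for 51 in ckh2 and for 18 in wild type. It was highest in ckh1 for 118 of 130 members, in ckh2 for 9 and in wild type for 3. Because the end points of this scale are the arrays that chose the members, the positions are a description with no test.

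**Figure D2:**
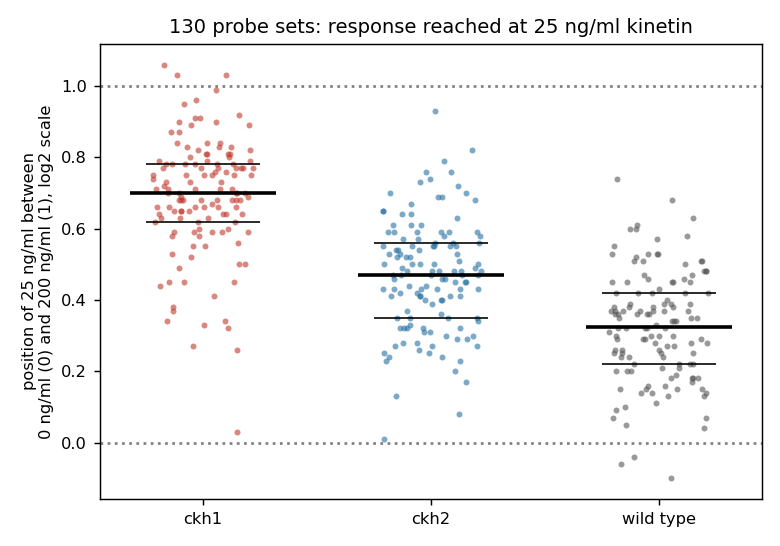
Position of each of the 130 members at 25 ng/ml kinetin between its own level at 0 ng/ml (0) and at 200 ng/ml (1), on the log2 scale, in ckh1, ckh2 and wild type. Each point is 1 member from the means of 2 arrays, the thick line is the median (0.70, 0.47 and 0.33) and thin lines are quartiles. The ckh1 points lie mostly above 0.5 and the wild type points mostly below it.

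The comparisons of 25 ng/ml with no kinetin use the no-kinetin arrays that chose the members, and the choice favours probe sets that are low there. Their values and counts are therefore a description with no test of the members. In ckh1 the fit (limma) put 84 members above no kinetin at an adjusted p below 0.05, where 1.17% of all probe sets tested were called higher. The median log2 difference of the members was 1.37, against -0.03 over all probe sets. In ckh2 the count was 8 (0.0905% of all), with a median of 0.94 against -0.00. In wild type it was 0 (0% of all), with a median of 0.53 against -0.01. There, 41 members had an unadjusted p below 0.05, against 243 of all probe sets tested. On rescaled signals the counts were 120 in ckh1 (4.43% of all), 57 in ckh2 (0.653%) and 0 in wild type (0%). With the replicate number, which the scaling of the signals follows, as a block in the fit they were 121 in ckh1 (5.53% of all), 69 in ckh2 (0.86%) and 6 in wild type (0.0517%). The count in ckh1 was 27 and 43 without the replicate 1 or 2 array at 25 ng/ml, and 32 and 36 without the replicate 1 or 2 array at 0 ng/ml. In ckh2 it was 0 and 5, and 3 and 0, for the same arrays.

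Among the named members with a large difference at 25 ng/ml in ckh2 were the thaumatin family member AT5G40020 (2.08), AT4G33550 (1.90), the peroxidase AT5G51890 (1.90), AT1G03820 (1.76) and AT4G08160 (1.58). AT5G40020 had 254 and 191 at 25 ng/ml against 36.9 and 26.2 at 0 ng/ml in ckh2, with no overlap. In ckh1 the log2 differences of the same genes were 1.78 for AT5G40020, 2.45 for AT4G33550, 1.84 for AT5G51890, 1.47 for AT1G03820 and 1.49 for AT4G08160.

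Both replicates were higher at 25 than at 0 ng/ml for 129 members in ckh1 (32.4% of all probe sets), 124 in ckh2 (28.7%) and 120 in wild type (25.4%). A log2 difference of at least 1 was reached by 111 members in ckh1 (2.17% of all), 58 in ckh2 (0.666%) and 7 in wild type (0.123%).

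The response to 25 ng/ml was also compared between genotypes in the same fit. It contains the no-kinetin arrays of both genotypes, which chose the members, and is a description for that reason. The ckh1 response minus the wild type response had a median of 0.85 over the members and -0.02 over all probe sets, and was above 0 for 127 members. The fit called 0 members (0% of all probe sets higher). At an unadjusted p below 0.05 there were 49 members and 576 of all probe sets. On rescaled signals 18 members were called higher (0.407% of all), and in the fit with the block 26 (0.692%). The ckh2 response minus the wild type response had a median of 0.39 against 0.01 over all probe sets, and was above 0 for 110 members. It was called for 0 members (0%), on rescaled signals for 0 (0%) and with the block for 0 (0.00646%). Unadjusted p was below 0.05 for 13 members and 178 of all probe sets as deposited, for 35 and 643 on rescaled signals, and for 41 and 888 with the block.

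The levels without kinetin differed as well. Without kinetin, 72 members were lower in ckh1 than in wild type in both replicates (27.1% of all probe sets) and 29 were higher (36.5%), with a median log2 difference of -0.28. In ckh2, 75 were lower (33.3%) and 30 higher (31%), with a median of -0.34. These levels are among those that chose the members and carry no test. The median member signal per array is given here to show the levels. It was 110 and 106 at 0, 389 and 339 at 25, and 648 and 491 at 200 ng/ml in ckh1. It was 138 and 91.3, 279 and 209, and 654 and 474 in ckh2, and 169 and 136, 266 and 195, and 658 and 463 in wild type. At 25 ng/ml both ckh1 arrays stood above every array of the other genotypes, and at 200 ng/ml the genotypes overlapped.

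The arrays at 25 ng/ml had no part in choosing the members, so the differences between genotypes there use no array of the rule. The spread in the fit is shared over all groups, however, and comes in part from the arrays that chose the members. The rule asked for a rise in both replicates, which may favour a small spread. The counts of members called are therefore not fully independent of the choice. Between ckh1 and wild type at 25 ng/ml, 22 members were higher in ckh1 and 2 lower (limma, adjusted p below 0.05). Over all probe sets tested, 0.64% were called higher and 1.69% lower. The median log2 difference of the members was 0.59, with quartiles of 0.20 and 1.03, against 0.01 over all probe sets, and 111 of the 130 lay above 0. In both replicates 101 members were higher in ckh1, against 33.8% of all probe sets. On rescaled signals 48 members were higher and 4 lower, where 2.79% of all probe sets were called higher and 4.84% lower. With the replicate number as a block in the fit 54 were higher and 4 lower, where the shares of all probe sets were 4.06% and 5.7%. The number of calls was 7 without the replicate 1 ckh1 array and 4 without the replicate 2 ckh1 array. It was 12 without the replicate 1 wild type array and 11 without the replicate 2 wild type array.

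**Figure D3:**
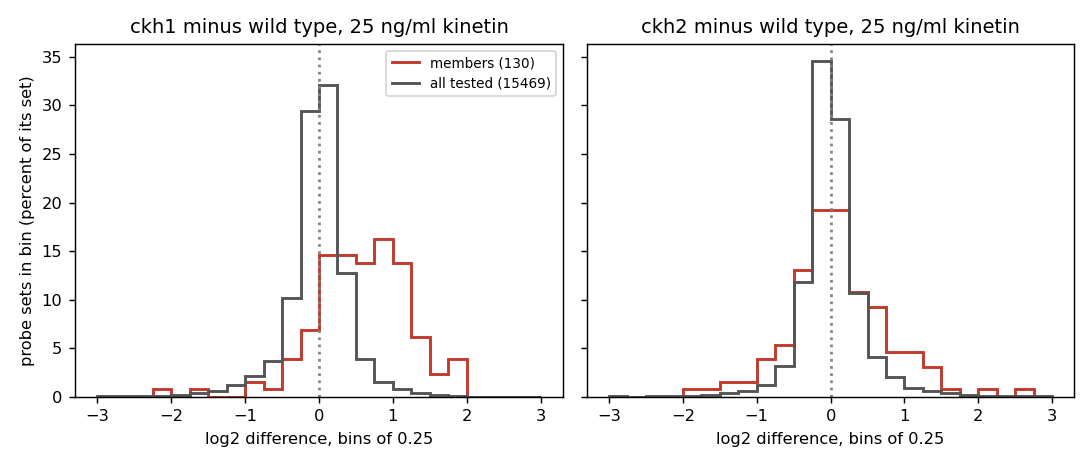
Percent of the 130 members (red) and of all 15469 probe sets tested (grey) in bins of the log2 difference at 25 ng/ml kinetin, for ckh1 minus wild type and for ckh2 minus wild type, from 2 arrays per group. The members' median is 0.59 for ckh1, against 0.01 over all probe sets, and 0.06 for ckh2, against -0.01.

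The member with the largest higher call in ckh1 was AT4G33550, with 828 and 786 in ckh1 against 210 and 163 in wild type at 25 ng/ml. The log2 difference was 1.97 ± 0.36 (SE, n = 2 arrays each, limma, adjusted p = 0.0049), and without the replicate 2 ckh1 array the adjusted p was 0.0532. AT2G46630 had 602 and 610 in ckh1 against 224 and 173 in wild type, a difference of 1.5 ± 0.27 (limma, adjusted p = 0.00415). Its call was also lost without the replicate 2 ckh1 array, at an adjusted p of 0.0589. Another 2 members with no gene name, 247956_at with 989 and 1098 in ckh1 against 253 and 258 in wild type, and 259640_at with 265 and 296 against 62.6 and 56.3, kept the call under each of the 13 alternatives run. In all 4 of these members the ckh1 and wild type arrays were far apart.

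The other named members that were higher in ckh1 at 25 ng/ml were AT1G63310 (1.52), the cupin AT3G10080 (1.43), the alpha/beta hydrolase AT3G15650 (1.40), the Rossmann-fold dehydrogenase AT5G50130 (1.37), AT3G47510 (1.31), AT3G61920 (1.24) and the GPI-anchored protein AT3G06035 (1.11). AT5G50130 had 322 and 335 in ckh1 at 25 ng/ml, against 101 and 120 in wild type. At 200 ng/ml ckh1 had 323 and 338, so that its signal at 25 ng/ml had reached that at 200. AT3G10080 had 2634 and 1964 in ckh1 against 852 and 803 in wild type, with no overlap. The calls of AT1G63310, AT3G15650, AT3G47510, AT3G61920 and AT3G06035 were lost without either ckh1 array, with adjusted p-values of up to 0.269 over all alternatives of these genes. All but AT3G06035 of these 5 were lost without the replicate 2 wild type array too, and AT3G06035 without either wild type array. AT3G61920 also lost it without the filter on low signals and with the smaller pseudocount. The call of AT3G10080 was lost without the replicate 1 array of ckh1 or of wild type (adjusted p up to 0.119). That of AT5G50130 was lost without the replicate 2 ckh1 array or the replicate 1 wild type array (up to 0.0672).

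The 2 members called lower in ckh1 are ones that, like all members, were higher at 200 than at 0 ng/ml in ckh1 too. ALPHA-VPE, a protease that matures vacuolar proteins, had 125 and 85.5 in ckh1 at 25 ng/ml against 371 and 897 in wild type, a log2 difference of -2.21 ± 0.45 (SE, n = 2 arrays each, limma, adjusted p = 0.0091). The wild type arrays differed widely from each other, and the call was lost without the replicate 2 array of ckh1 or of wild type and with the smaller pseudocount (adjusted p up to 0.133). AT5G44400, of the berberine bridge enzyme-like family, had 193 and 131 in ckh1 against 739 and 416 in wild type, with a difference of -1.64. That call was lost without either ckh1 array, without the replicate 1 wild type array and without the filter (adjusted p up to 0.383). At 200 ng/ml both genes were again lower in ckh1. ALPHA-VPE had 369 and 208 in ckh1 against 1749 and 766 in wild type, and AT5G44400 had 291 and 250 against 1572 and 697.

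Between ckh2 and wild type at 25 ng/ml the members differed in both directions. The wild type arrays are the same as in the comparison with ckh1. There were 8 members higher in ckh2 and 4 lower, where 1.19% of all probe sets were called higher and 0.821% lower. The median log2 difference was 0.06, against -0.01 over all probe sets, and 70 members lay above 0. In both replicates 53 members were higher, against 27.1% of all probe sets, and 45 were lower, against 28.7%. On rescaled signals 15 were higher and 13 lower, where the shares of all probe sets were 3.49% and 2.5%. In the fit with the replicate block 21 were higher and 14 lower, where the shares were 4.51% and 3.41%. The number of calls was 5 and 7 without the replicate 1 or 2 ckh2 array, and 4 and 2 without the replicate 1 or 2 wild type array.

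The copper amine oxidase AT1G31710, which oxidises polyamines, was lower in ckh2 with both of its probe sets. The first had 263 and 221 in ckh2 against 861 and 777 in wild type at 25 ng/ml, a log2 difference of -1.65 ± 0.28 (SE, n = 2 arrays each, limma, adjusted p = 0.00277). This call was kept under all 13 alternatives, with an adjusted p of at most 0.0343. The second had 71.4 and 68.3 against 216 and 203, a difference of -1.29 (limma, adjusted p = 0.028), and was lost without any single one of the 4 arrays and without the filter (up to 0.157). The 2 genotypes did not overlap with either probe set.

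Of the other named members, ALPHA-VPE was lower in ckh2 too (-1.89), with 196 and 92.5 against 371 and 897. AT4G18425 was lower (-1.46), with 162 and 108 in ckh2 against 384 and 446 in wild type. AT5G19110 was higher (1.23), with 266 and 150 in ckh2 against 66.4 and 73.1, and AT5G50130 was higher (1.01), with 263 and 235 against 101 and 120. Most of these calls were weak. That of AT5G50130 was lost under 9 of the 13 alternatives (adjusted p up to 0.306), among them quantile normalization, rescaled signals, no filter, the smaller pseudocount and the loss of any single array. That of AT5G19110 was lost under 7 (up to 0.532), with no filter, with the smaller pseudocount, and without the replicate 1 ckh2 array or either wild type array. That of ALPHA-VPE was lost under 6 (up to 0.36), with no filter, with the smaller pseudocount, and without the replicate 2 array of ckh2 or of wild type, also with the replicate block. That of AT4G18425 was lost under 2, without the replicate 2 array of ckh2 or of wild type (up to 0.0873). The unnamed member 261766_at, with 906 and 550 in ckh2 against 86.6 and 101 in wild type, differed by 2.60 and kept its call under all 13 alternatives. It was already high in ckh2 without kinetin, at 459 and 199 against 11.6 and 21.7 in wild type.

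The mutants were also compared with each other at 25 ng/ml. There were 13 members higher in ckh1 than in ckh2 and 1 lower, where 0.33% of all probe sets were called higher and 0.588% lower. The median log2 difference was 0.56, against 0.01 over all probe sets, and 103 members lay above 0. In both replicates 93 were higher in ckh1, against 32.5% of all probe sets. On rescaled signals 45 were higher and 3 lower, where the shares of all probe sets were 2.11% and 3.36%. The fit with the replicate block put 51 higher and 5 lower, where the shares were 3.05% and 4.26%. The number of calls was 3 and 5 without the replicate 1 or 2 ckh1 array, and 6 and 8 without the replicate 1 or 2 ckh2 array. The ckh1 arrays at 25 ng/ml are shared with the comparison of ckh1 with wild type.

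AT3G15650 differed most between the mutants among the named members, with 448 and 380 in ckh1 against 61.3 and 58.4 in ckh2. The log2 difference was 2.33 ± 0.28 (SE, n = 2 arrays each, limma, adjusted p = 0.000193). AT2G46630 had 602 and 610 in ckh1 against 162 and 157 in ckh2, a difference of 1.76. Both calls were kept under all 13 alternatives, as was that of 247956_at (2.03). In all 3 the 2 mutants were far apart, and ckh2 lay close to or below wild type.

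AT3G45160 had 1500 and 1227 in ckh1 against 322 and 417 in ckh2 (1.81), and SAH7, of the Ole e 1 and extensin family of secreted proteins, had 3854 and 2943 against 1310 and 1072 (1.49). The peroxidase AT5G51890 had 1381 and 1032 against 509 and 404 (1.34). In these 3 genes the mutants did not overlap. The call of AT3G45160 was lost without either ckh1 array or the replicate 1 ckh2 array. That of SAH7 was lost without the replicate 1 ckh1 array or the replicate 2 ckh2 array, and that of AT5G51890 without any single array and without the filter. The one member lower in ckh1 than in ckh2 was AT5G44400 (-1.73), with 193 and 131 against 790 and 440, and its call was lost without either ckh1 array, without the replicate 1 ckh2 array, without the filter and with the smaller pseudocount.

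The other named members higher in ckh1 than in ckh2 were AT4G33550 (1.80), AT3G10080 (1.66), AT3G47510 (1.58), AT1G63310 (1.55), the first probe set of AT1G31710 (1.39) and AT3G06035 (1.34). AT1G31710, which was lower in ckh2 than in wild type, had 690 and 667 in ckh1 against 263 and 221 in ckh2, and ckh1 lay near the 861 and 777 of wild type. All 6 calls were lost without the replicate 1 ckh1 array, and that of AT3G10080 in that case alone. The other 5 were also lost without the replicate 2 ckh1 array. Those of AT4G33550, AT1G63310, AT1G31710 and AT3G06035 were lost without the replicate 1 ckh2 array as well, and those of AT3G47510, AT1G31710 and AT3G06035 without the replicate 2 ckh2 array. That of AT4G33550 was lost without the filter too, and with the replicate block without the replicate 1 ckh2 array.

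In 9 members the position reached by ckh1 at 25 ng/ml was at or under 0.4, and ARR15 and XTH32 were among them. ARR15 had 41.5 and 56.0 in ckh1, 63.1 and 50.2 in ckh2, and 53.9 and 46.1 in wild type at 25 ng/ml. The log2 differences from wild type were -0.03 ± 0.36 in ckh1 and 0.12 ± 0.36 in ckh2 (SE, n = 2 arrays each), neither of which passed. Its positions at 25 ng/ml were 0.34, 0.29 and 0.31 in ckh1, ckh2 and wild type, and the 3 genotypes overlapped. The 95% interval of the difference ran from -0.78 to 0.72 in ckh1 and from -0.64 to 0.87 in ckh2, so that differences of this size in either direction are not excluded by these arrays.

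XTH32, which cuts and rejoins xyloglucan, had 71.0 and 43.3 in ckh1, 48.9 and 54.1 in ckh2, and 51.1 and 86.7 in wild type at 25 ng/ml, with overlapping genotypes. At 200 ng/ml it had 178 and 130, 261 and 197, and 271 and 217 in the same order. AT5G59305 was at most 3.21 at 0 and 25 ng/ml in every genotype. At 200 ng/ml it had 80.6 and 77.2 in ckh1, 45.0 and 42.2 in ckh2, and 35.1 and 32.7 in wild type. It was thus seen at 200 ng/ml alone, at signals that are low for this array.

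The opposite pattern, a rise complete at 25 ng/ml, occurred in ckh1. The position there was above 1 for 3 members, AT5G24320 among them (1.06), and for no member in ckh2 or wild type. AT5G50130 followed at 0.99. Positions ran from 0.03 to 1.06 in ckh1, from 0.01 to 0.93 in ckh2 and from -0.10 to 0.74 in wild type.

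TSA in wild type, without kinetin, was set against no addition, whose arrays are among those that chose the members. What follows on this difference is again a description with no test of the members. The fit put 22 members higher with TSA and 10 lower at an adjusted p below 0.05, where 5.84% of all probe sets were called higher and 5.13% lower. The median log2 difference of the members was 0.15 (quartiles -0.41 and 0.83), against -0.05 over all probe sets. In both replicates 63 members were higher with TSA (34.4% of all probe sets) and 42 lower (42%). On rescaled signals 45 were higher and 22 lower, where 13.6% and 16.5% of all probe sets were called. With the replicate number as a block 46 were higher and 23 lower, where the shares were 16% and 19.4%. The number of calls was 14 and 25 without the replicate 1 or 2 TSA array, and 18 and 25 without the replicate 1 or 2 array without addition.

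On the scale between no kinetin (0) and 200 ng/ml (1), TSA stood at a median of 0.10, with quartiles of -0.23 and 0.49. It lay above 0.5 for 31 members, above 1 for 8 and below 0 for 52. At 25 ng/ml kinetin, 127 of the 130 lay between 0 and 1 in wild type.

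**Figure D4:**
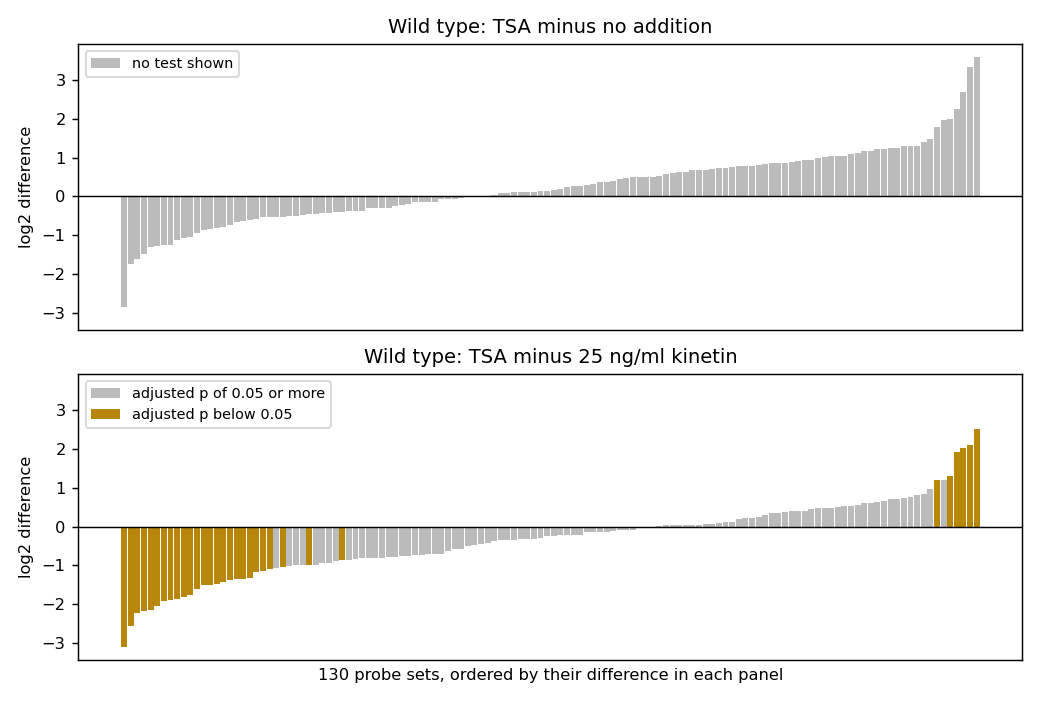
Log2 difference of each of the 130 members between wild type with TSA and wild type with no addition (upper panel) or with 25 ng/ml kinetin (lower panel), 2 arrays per group, with members ordered by their difference in each panel. Coloured bars in the lower panel passed an adjusted p of 0.05 (limma), 6 higher and 26 lower. The upper panel shows no test, since its arrays without addition chose the members.

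The members highest with TSA against no addition included secreted proteins. The cupredoxin AT1G72230 had 737 and 420 with TSA against 107 and 85.9 without addition, a log2 difference of 2.25. AT1G14120, of the 2-oxoglutarate dioxygenase family, had 475 and 287 against 43.3 and 25.6, a difference of 2.70, and its TSA signals exceeded those at 200 ng/ml kinetin (129 and 103). AT1G03820 had 2867 and 2447 against 807 and 691 (1.79), and the cupin AT3G10080 had 1422 and 1337 against 493 and 508 (1.41). In all 4 the groups did not overlap.

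The acid phosphatase family member AT1G04040 (1.99), the dirigent protein AT3G13650 (1.29), AT3G15650 (1.24), the defensin-like AT4G22212 (1.24), SAH7 (1.23), the cupredoxins AT3G27200 (1.18) and AT5G26330 (0.84) and AT3G47510 (1.05) also lay higher with TSA. AT1G04040 had 2849 and 1787 with TSA against 681 and 437 without addition, above its 1813 and 1065 at 200 ng/ml kinetin within each replicate. AT3G13650 had 1552 and 1082 against 643 and 412, and AT4G22212 had 3854 and 1880 against 1157 and 1099. AT3G15650 had 335 and 176 against 89.3 and 85.5, and in none of these 4 genes did the groups overlap. The 2 members with the largest positive difference have no single gene. 266270_at had 1008 and 864 with TSA against 55.0 and 50.0 (3.59), and 267607_s_at differed by 3.34.

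The member with the largest negative difference was AT1G31710. Its first probe set had 85.9 and 57.0 with TSA against 705 and 658 without addition, a log2 difference of -2.86, and its second had 29.7 and 22.7 against 164 and 142 (-1.75). The BAHD acyltransferase AT5G47980 had 69.5 and 46.9 against 221 and 243 (-1.61). The groups of both genes did not overlap. The zinc-binding dehydrogenase family member AT5G37980 (-1.29), the protease AT5G19100 (-1.24) and AT3G19370 (-1.07) were lower too. AT5G37980 had 22.3 and 30.6 with TSA against 121 and 88.9 without addition, and AT3G19370 had 82.6 and 62.8 against 192 and 171. AT5G19100 had 172 and 103 against 466 and 267, so that none of the 3 overlapped.

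The named members that differed least between TSA and no addition were AT5G59305 (0.01), which was near the floor in both, AT1G70500 (0.02 ± 0.31) and AT5G51890 (0.04 ± 0.30; SE, n = 2 arrays each). AT1G70500 had 61.0 and 64.9 with TSA against 83.2 and 44.3 without addition, and AT5G51890 had 383 and 511 against 557 and 328. In both genes the groups overlapped.

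TSA was then compared with 25 ng/ml kinetin in wild type. This difference uses no array that chose the members but shares its kinetin arrays with the comparisons of both mutants. The spread in the fit again comes in part from the arrays that chose the members. There were 6 members higher with TSA and 26 lower, where 5.35% of all probe sets were called higher and 4.2% lower. The median log2 difference was -0.25, against -0.04 over all probe sets. In both replicates 38 members were higher (33.6% of all probe sets) and 70 lower (40.1%). On rescaled signals 17 were higher and 49 lower, where 12.5% and 14.3% of all probe sets were called. With the replicate number as a block 18 were higher and 51 lower, where the shares were 14.8% and 17.1%. The number of calls was 18 and 22 without the replicate 1 or 2 TSA array, and 16 and 30 without the replicate 1 or 2 array at 25 ng/ml.

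ALPHA-VPE had 93.6 and 60.9 with TSA against 371 and 897 at 25 ng/ml, a log2 difference of -2.55 ± 0.45 (SE, n = 2 arrays each, limma, adjusted p = 0.000783). AT5G19100 had 172 and 103 against 990 and 536 (-2.23). AT5G37980 had 22.3 and 30.6 against 207 and 152 (-1.93). These genes, AT1G31710 (-3.11 and -2.15), AT5G47980 (-2.05) and AT3G19370 (-1.51) kept their calls under all 13 alternatives, and their groups did not overlap.

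ATMPK13 had 63.5 and 78.9 with TSA against 372 and 200 at 25 ng/ml (-1.62), and the GH10 xylanase family member AT4G08160 had 65.6 and 72.0 against 279 and 166 (-1.34). Both calls were lost without the replicate 1 array of either group. AT3G45160 (-1.5), AT5G44400 (-1.47), AT4G18425 (-1.09), AT1G03620 (-0.99) and AT3G06035 (-0.87) were also lower, and each of these 5 calls was lost without the replicate 2 TSA array and without the replicate 1 array at 25 ng/ml. AT4G18425 and AT3G06035 also lost the call without each of the other arrays, and AT1G03620 without the replicate 1 TSA array. AT1G03620 and AT5G44400 lost it without the filter too. The named members higher with TSA than at 25 ng/ml were AT1G14120 (1.92), AT1G72230 (1.31) and AT1G03820 (1.19). The call of AT1G14120 was kept under all 13 alternatives. That of AT1G72230 was lost without the replicate 1 array of either group, and that of AT1G03820 without the replicate 1 TSA array or either array at 25 ng/ml. Of the named members, OPS (0.01), AT4G18630 (-0.01) and AT1G62480 (0.03) differed least between TSA and 25 ng/ml. AT4G18630 had 130 and 123 with TSA against 128 and 127 at 25 ng/ml. ARR15 had 18.3 and 5.29 with TSA, against 53.9 and 46.1 at 25 ng/ml and 24.9 and 24.7 without addition. The difference from 25 ng/ml was -1.0 (limma, adjusted p = 0.0937), and on rescaled signals the adjusted p was 0.0239.

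The members are given here by role, in groups of 5 to 12 made with the values known. Counts and medians are a description, and no difference between roles was tested. In ckh1 minus wild type at 25 ng/ml, 111 of all 130 members and 51.7% of all probe sets lay above 0. With TSA against no addition 78 members and 46.2% of all did. With TSA against 25 ng/ml 49 members and 46% of all did. Of the 8 other secreted or anchored proteins, all 8 lay above 0 in ckh1 minus wild type at 25 ng/ml, with a median of 0.84, a range from 0.02 to 1.97 and 3 called higher, where 0.64% of all probe sets were called higher and 1.69% lower. With TSA against no addition, 6 of the 8 lay above 0, with a median of 1.01 against -0.05 over all probe sets. In ckh2 minus wild type at 25 ng/ml, 3 of the 8 lay above 0, with a median of -0.05, where 47.8% of all probe sets lay above 0. Of the 12 cell wall members 0 were called in ckh1 against wild type at 25 ng/ml, with a median of 0.36 and a range from -0.76 to 1.26. With TSA against no addition 8 of the 12 lay above 0, with a median of 0.08. Of the 10 probe sets for small-molecule enzymes, 2 were called higher and 1 lower in that comparison. Of the 5 proteases, 2 were called lower with TSA than at 25 ng/ml, where 4.2% of all probe sets were, and all 5 lay below 0. At 25 ng/ml 4 of the 5 lay above 0 in ckh1 minus wild type, and 1 did in ckh2 minus wild type. Of the 9 signalling and regulatory members, all 9 lay above 0 in ckh1 minus wild type at 25 ng/ml (median 0.68, range from 0.01 to 1.14), with 0 called. The 64 members with no single gene had a median of 0.67 in ckh1 minus wild type at 25 ng/ml, against 0.52 for the 66 named ones.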

How the data were processed

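RNA was hybridised to 20 arrays, and the authors deposited linear signal intensities, made with MAS5 per the submitters' processing notes. RNA extraction and labelling followed the labels' protocols (RNeasy, biotinylated cRNA). No version, scaling target or genome build is stated in the sources used here. Groups came from sample titles and labels, and 0 columns were left unused.

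Besides 64 controls the array has 22746 probe sets. Signals were raised by 27.4 (0.1 of the median trimmed mean over arrays) and put on the log2 scale. A filter kept 15469 probe sets whose mean exceeded the 40th percentile (6.55) in 1 or more groups. One fit of 10 group means (limma 3.58.1 in R 4.3.3, lmFit and eBayes with a trend) gave all tests, adjusted by Benjamini-Hochberg over all probe sets tested and called below 0.05. In both-replicate counts, arrays were compared within replicate numbers. Tables were made with pandas 2.3.3 in Python 3.11.15.

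The members and the gene lists were chosen with earlier results of these data known. By rule, named members with values are the 12 with the highest mean rise, up to 10 called per mutant at 25 ng/ml, up to 8 called in each direction and the 3 nearest 0 with TSA, and those of the 14 lists (163 entries, 24 named on the array, 20 tested). Any further genes with values, among them XTH32, AT5G59305, AT5G24320 and the probe sets without a gene name, were chosen after their values were seen. Genes come from the array's annotation table and refer to TAIR10.1 for neighbours. Of all probe sets, 59.4% map to 1 gene, against 50.8% of the members. Promoter and protein sequences were not analysed here.

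Alternatives were quantile normalization, rescaling to a common trimmed mean, no filter, a smaller pseudocount, the replicate number as a block, other settings of the rule, and leaving out single arrays of the groups compared, where the remaining array of a group is taken to vary as much as in other groups. Data were simulated for ckh1 against wild type at 25 ng/ml, with 100 probe sets changed per size among 15469. The fit recovered 18 at a log2 difference of 1 and 93 at 2, with 5 unchanged ones called. With the block it recovered 20 and 93. The simulated arrays varied independently, with no difference between replicate numbers. The deposited arrays do differ by replicate number, so these rates need not hold for them.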

Additional observations from a re-analysis of the deposited data

Results flagged for a closer look

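In 3 members both arrays at 25 ng/ml kinetin moved one way against no kinetin in a mutant and both the opposite way in wild type. For AT2G46630 the response was 1.2 (log2) higher in ckh1 than in wild type and 0.61 higher in ckh2. For AT3G05640, of the PP2C phosphatase family, it was 0.63 higher in ckh1 and 0.72 higher in ckh2, and for the unnamed member 260059_at 0.97 higher in ckh1. AT3G05640 had 102 and 81.5 at 25 ng/ml against 58.6 and 52.1 at 0 ng/ml in ckh1, and 92.7 and 88.0 against 108 and 93.2 in wild type. None of these differences in response passed in the fit of all probe sets, and the opposite directions themselves were not tested. The no-kinetin arrays in them also chose the members.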

How the results depend on the processing

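Counts of called members moved with the scaling of the arrays, while none of the gene calls made by the fit as deposited changed direction under the alternatives run. Most calls between genotypes at 25 ng/ml were nevertheless lost under at least 1 alternative. Quantile normalization gave 52 calls for ckh1 against wild type at 25 ng/ml, 30 for ckh2 against wild type, 49 for ckh1 against ckh2, 65 for TSA against 25 ng/ml, 63 for TSA against no addition, 51 for ckh2 at 25 ng/ml against no kinetin and 17 for the ckh1 response minus that of wild type. Rescaling gave 52, 28, 48, 66, 67, 57 and 18 for the same comparisons. Without the filter, ckh2 against wild type had 4 and ckh2 at 25 ng/ml against no kinetin 3, and with the smaller pseudocount the last had 18. With the replicate number as a block the counts were 58, 35, 56, 69, 69, 69 and 26 in the first order, and 6 for wild type at 25 ng/ml against no kinetin. Deviations of same-numbered arrays correlated between -0.13 and 0.64 over 45 pairs of groups, 27 of them above 0.1, and 18 of 20 arrays correlated best with their own number. This is a hint from the data and not from the design, so the main fit did not pair the arrays by number. The rule, the both-replicate counts and the positions within each replicate did compare arrays of the same number. With 1 array left out the counts ran from 4 to 12 for ckh1 against wild type, 2 to 7 for ckh2 against wild type, 3 to 8 for ckh1 against ckh2, 16 to 30 for TSA against 25 ng/ml, 14 to 25 for TSA against no addition, 27 to 43 for ckh1 and 0 to 5 for ckh2 at 25 ng/ml against no kinetin, and 0 for wild type. They were 0 for both differences in response. With the block and 1 array left out they were 42 to 46, 18 to 28, 29 to 43, 52 to 69, 51 to 63, 98 to 111, 27 to 51 and 0 to 2 in that order, then 8 to 25 and 0 to 0 for the responses of ckh1 and ckh2. The cause of these shifts was not tested.

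The rule took 69 probe sets with 100 added to the signals, 211 with a threshold of 0.8 and 38 with 1.5. The median position of 25 ng/ml was 0.72 in ckh1 and 0.34 in wild type with 10 added, and 0.67 in ckh1, 0.44 in ckh2 and 0.30 in wild type with 100 added. Low signals limit the dim members, among them ARR15 and AT5G59305.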
